A study of Mus musculus with 24 samples.

Results

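The Gadd45 and Btg growth-arrest families were followed as 8 genes of the 51826 gene identifiers in the count table: *Gadd45a*, *Gadd45b*, *Gadd45g*, *Btg1*, *Btg2*, *Btg3*, *Tob1* and *Tob2*. The genes were chosen by name, with earlier results of these data known. In part, *Btg2* was chosen from its measured values, because its response to learning differed between the tasks. *Btg2* is therefore described without a test wherever wild-type libraries enter the comparison, and it was tested only between the mutant groups, so 7 members were tested in each comparison and 8 in that one. RNA was sequenced from the dorsal hippocampus of male C57BL/6j mice aged 2 to 4 months, either wild type (WT) or CBP KIX/KIX, a constitutive knock-in of point mutations in the KIX domain of the coactivator CBP, and WT littermates came from the same heterozygous matings. The first experiment, RNA-Seq 1, used total RNA depleted of ribosomal RNA and held 3 untrained WT homecage libraries, 3 WT libraries and 3 KIX/KIX libraries taken 1 h after the third of 3 days of Morris water maze training (MWM). The second, RNA-Seq 2, used polyA selection and held 3 WT homecage libraries, 4 WT libraries and 4 KIX/KIX libraries taken 1 h after 1 day of contextual fear conditioning (CFC), and 4 KIX/KIX homecage libraries. KIX/KIX homecage animals were sequenced in RNA-Seq 2 alone. The tasks differed in library type and run as well, and these cannot be told apart from the training itself. Total counts ran from 38174044 to 65709282 per library in RNA-Seq 1 and from 15385836 to 46056290 in RNA-Seq 2, where replicates 1 and 2 held at least 30143949 counts and replicates 3 and 4 at most 20568337. A floor of 3 counts corresponds to between 0.0536 and 0.0905 CPM (counts-per-million, by the upper-quartile effective library size) in RNA-Seq 1 and between 0.0587 and 0.174 CPM in RNA-Seq 2, for counting error only. Every member was above that floor in every library, with the lowest count, 32, for *Gadd45a*.

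GADD45 proteins are small, acidic, stress-inducible proteins that bind PCNA, p21 and the CDK1 kinase complex, activate the MAP kinase kinase kinase MEKK4 (gene *Map3k4*) and have been linked to active DNA demethylation. BTG and TOB proteins share an N-terminal BTG domain that binds the CNOT7 and CNOT8 deadenylases of the CCR4-NOT complex and so promote shortening of mRNA tails, and they restrain proliferation. In neurons, *Gadd45b*, *Gadd45g* and *Btg2* are known as genes induced by activity, and CBP is a coactivator for CREB, which binds its KIX domain.

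The libraries carried the markers of hippocampus. All 6 excitatory neuron markers (*Slc17a7*, *Camk2a*, *Neurod6*, *Wfs1*, *Prox1*, *Neurod2*) were above 0 in every library, *Camk2a* was the most abundant (RNA-Seq 1, 2514 to 4489 CPM; RNA-Seq 2, 2999.8 to 4250.0 CPM), and *Prox1*, a marker of dentate granule cells, was the least abundant (63.2 to 123 CPM over both). WT homecage replicate 3 of RNA-Seq 1 stood apart within its group. It had a summed excitatory marker level of 5074 CPM against 8058 and 8434 CPM in its group, and a choroid plexus sum (*Ttr*, *Kl*, *Folr1*, *Clic6*, *Kcnj13*) of 1760.2 CPM against 138 and 153 CPM, where KIX/KIX MWM replicate 2 was at 5108 and 2866 CPM. KIX/KIX homecage replicate 3 of RNA-Seq 2 was untrained by its label and yet held high immediate early gene levels. *Fos*, which encodes an AP-1 transcription factor, was at 2.55, 1.64, 105 and 4.31 CPM in KIX/KIX homecage replicates 1 to 4, and *Arc*, which encodes a synaptic cytoskeletal protein, was at 69.1, 47.7, 553 and 70.4 CPM, with replicate 3 the highest for each. Comparisons whose values turned on either library are given with and without it. KIX/KIX homecage replicate 3 was singled out after seeing these levels, so the fits without it are a description and support no rise of the genes that set it apart.

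*Crebbp*, the mutated gene that encodes CBP, was expressed in every group. Its level was 212 ± 39.9 CPM (SD, n = 3) in WT homecage, 197 ± 29.7 CPM (SD, n = 3) in WT MWM and 183 ± 15.6 CPM (SD, n = 3) in KIX/KIX MWM of RNA-Seq 1. In RNA-Seq 2 it was 66.2 ± 4.59 CPM (SD, n = 3) in WT homecage, 64.4 ± 4.12 CPM (SD, n = 4) in WT CFC, 66.6 ± 3.85 CPM (SD, n = 4) in KIX/KIX CFC and 63.1 ± 4.23 CPM (SD, n = 4) in KIX/KIX homecage. Trained KIX/KIX and trained WT libraries differed in *Crebbp* by −0.02 on the log2 scale, higher in 3 of 7 mutant libraries, which did not pass the edgeR test (adjusted p = 0.895). The point mutations themselves are not visible in gene counts, so the genotypes are taken from the labels.

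*Gadd45b* (ENSMUSG00000015312.9, chromosome 10 from 80930073 to 80932204 on the plus strand, GRCm38) is the GADD45 member best known for induction in active neurons. In RNA-Seq 1 its level was 8.66, 12.3 and 8.78 CPM in the WT homecage libraries, 11.98, 15.99 and 12.6 CPM after MWM in WT and 11.6, 12.5 and 12.6 CPM after MWM in KIX/KIX. WT MWM replicate 2 was the highest of these libraries, and WT homecage replicate 2 lay inside the range of the trained libraries, so the groups overlapped. In RNA-Seq 2 the level was 9.16, 9.30 and 8.49 CPM in WT homecage, 14.0, 11.7, 12.6 and 13.5 CPM in WT CFC and 9.97, 9.95, 9.40 and 10.2 CPM in KIX/KIX CFC. All 4 WT CFC libraries were above every WT homecage library and above every KIX/KIX CFC library. The KIX/KIX homecage libraries were at 8.08, 8.76, 16.6 and 16.1 CPM, with replicates 3 and 4 the highest *Gadd45b* values of RNA-Seq 2 and replicates 1 and 2 among the lowest. By group mean, *Gadd45b* ran in RNA-Seq 2 from WT homecage (8.98 ± 0.432 CPM, SD, n = 3) through KIX/KIX CFC (9.89 ± 0.345 CPM, SD, n = 4) and KIX/KIX homecage (12.4 ± 4.595 CPM, SD, n = 4) to WT CFC (12.9 ± 1.03 CPM, SD, n = 4), and only the first of these steps was larger than the larger SD of its groups. In RNA-Seq 1 the order was WT homecage, KIX/KIX MWM, WT MWM, and the trained groups did not differ beyond their spread.

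*Gadd45g* (ENSMUSG00000021453.2, chromosome 13 from 51846678 to 51848468 on the plus strand), another activity-induced member, was at 11.8, 11.9 and 10.2 CPM in WT homecage, 9.23, 10.9 and 11.4 CPM in WT MWM and 13.1, 14.2 and 12.4 CPM in KIX/KIX MWM of RNA-Seq 1. Every KIX/KIX MWM library was above every WT library of RNA-Seq 1, and WT homecage and WT MWM overlapped. In RNA-Seq 2 *Gadd45g* was at 9.09, 11.5 and 9.94 CPM in WT homecage, 13.1, 15.4, 13.5 and 16.3 CPM in WT CFC, 11.3, 13.8, 11.7 and 13.7 CPM in KIX/KIX CFC and 8.67, 10.2, 24.6 and 12.8 CPM in KIX/KIX homecage. The WT CFC libraries lay above all WT homecage libraries and overlapped the KIX/KIX CFC libraries, and KIX/KIX homecage replicate 3 was the highest library of all. Its order in RNA-Seq 2 was WT homecage, KIX/KIX CFC, KIX/KIX homecage and WT CFC, with a step beyond the spread from WT homecage to KIX/KIX CFC and none between the later neighbours.

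*Gadd45a* (ENSMUSG00000036390.8, chromosome 6 from 67035096 to 67037457 on the minus strand), the member induced by p53 after DNA damage, was at 1.75, 1.14 and 1.81 CPM in WT homecage, 1.24, 1.41 and 1.25 CPM in WT MWM and 1.72, 1.90 and 1.53 CPM in KIX/KIX MWM. All 3 KIX/KIX MWM libraries were above the 3 WT MWM libraries, while WT homecage spanned the WT MWM range. In RNA-Seq 2 it was at 2.37, 2.65 and 2.97 CPM in WT homecage, 3.03, 2.67, 2.57 and 2.46 CPM in WT CFC, 3.05, 2.45, 2.24 and 1.69 CPM in KIX/KIX CFC and 2.30, 3.77, 5.22 and 4.09 CPM in KIX/KIX homecage. KIX/KIX homecage replicates 2, 3 and 4 were the highest libraries of RNA-Seq 2 for *Gadd45a* and replicate 1 was among its lowest, and no neighbouring group means differed beyond their spread in either experiment. The gene shares 337 exon bases with *E230016M11Rik* on the opposite strand, so reads of either could enter its count if strands were not separated.

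*Btg2* (ENSMUSG00000020423.6, chromosome 1 from 134075170 to 134079120 on the minus strand), an antiproliferative gene that is both a p53 target and induced by neuronal activity, had the widest range of the members in RNA-Seq 2. In RNA-Seq 1 it was at 25.0, 26.2 and 23.1 CPM in WT homecage, 21.7, 22.3 and 21.9 CPM in WT MWM and 21.4, 17.5 and 22.8 CPM in KIX/KIX MWM. All 3 WT homecage libraries were above all 6 trained libraries, by a small margin. In RNA-Seq 2 the values were 15.5, 16.8 and 13.9 CPM in WT homecage, 31.1, 24.7, 27.1 and 34.8 CPM in WT CFC and 21.4, 22.9, 22.1 and 25.4 CPM in KIX/KIX CFC. Here all 8 trained libraries were above all 3 WT homecage libraries, and WT CFC overlapped KIX/KIX CFC in 1 library. KIX/KIX homecage was at 14.7, 10.9, 57.6 and 9.65 CPM, where replicate 3 was the highest library of all 24 and replicates 2 and 4 were the lowest. The mean of that group, 23.2 ± 23.03 CPM (SD, n = 4), lay between those of KIX/KIX CFC (22.97 ± 1.74 CPM, SD, n = 4) and WT CFC (29.4 ± 4.45 CPM, SD, n = 4), and the step from WT homecage (15.4 ± 1.43 CPM, SD, n = 3) to KIX/KIX CFC was the only step beyond the spread in RNA-Seq 2.

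*Btg1* (ENSMUSG00000036478.8, chromosome 10 from 96617006 to 96622809 on the plus strand), a B-cell translocation gene that promotes quiescence, was the steadier BTG member, at 21.6 to 29.3 CPM with a median of 25.4 CPM over the 9 libraries of RNA-Seq 1. In RNA-Seq 2 it was at 27.8, 29.0 and 27.4 CPM in WT homecage, 31.0, 28.6, 32.3 and 32.9 CPM in WT CFC, 32.2, 38.1, 31.6 and 33.9 CPM in KIX/KIX CFC and 31.7, 26.8, 28.5 and 23.6 CPM in KIX/KIX homecage. The trained libraries tended to the upper end and KIX/KIX homecage replicate 4 was the lowest, but KIX/KIX homecage replicate 1 overlapped the trained groups, and of the steps KIX/KIX homecage, WT homecage, WT CFC, KIX/KIX CFC only the second was larger than the spread. *Btg3* (ENSMUSG00000022863.14, chromosome 16 from 78332637 to 78377192 on the minus strand), an antiproliferative member and p53 target, was at 2.90, 4.16 and 5.44 CPM in WT homecage, 4.22, 5.26 and 4.47 CPM in WT MWM and 5.68, 5.38 and 6.08 CPM in KIX/KIX MWM of RNA-Seq 1. The KIX/KIX MWM libraries were above the WT MWM libraries and reached into the WT homecage range, whose replicates 1 and 3 differed the most. In RNA-Seq 2, *Btg3* ran from 3.32 to 5.49 CPM, median 4.90 CPM over 15 libraries, with KIX/KIX homecage replicates 3 and 4 lowest and no neighbouring group means beyond their spread. It shares 695 exon bases with *Cxadr* on the opposite strand. *Btg4*, the remaining gene of the BTG branch, had 37 counts in all 24 libraries together and at most 4 in any library, so it was not tested, and the pseudogenes *Btg1-ps1* and *Btg1-ps2* had 0 counts.

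*Tob1* (ENSMUSG00000037573.5, chromosome 11 from 94211454 to 94215495 on the plus strand), a BTG-domain protein that recruits CCR4-NOT to mRNA and also binds SMAD proteins, was at 15.7, 15.1 and 15.02 CPM in WT homecage, 14.999, 18.6 and 16.4 CPM in WT MWM and 15.9, 16.2 and 15.7 CPM in KIX/KIX MWM. Those 9 libraries overlapped except that WT MWM replicates 2 and 3 were the highest. In RNA-Seq 2 *Tob1* was at 28.2, 29.0 and 29.1 CPM in WT homecage, 39.4, 36.3, 37.6 and 38.6 CPM in WT CFC, 34.8, 34.9, 43.6 and 41.0 CPM in KIX/KIX CFC and 30.6, 25.3, 35.6 and 19.8 CPM in KIX/KIX homecage. Every WT CFC and KIX/KIX CFC library was above every WT homecage library, and among KIX/KIX homecage libraries only replicate 3 reached the trained range. The *Tob1* means of RNA-Seq 2 ran KIX/KIX homecage, WT homecage, WT CFC, KIX/KIX CFC, and only the step from WT homecage to WT CFC was larger than the spread, while in RNA-Seq 1 the order was WT homecage, KIX/KIX MWM, WT MWM with the first step beyond it.

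*Tob2* (ENSMUSG00000048546.7, chromosome 15 from 81848272 to 81858796 on the minus strand), the close relative of *Tob1*, was at 39.2, 47.2 and 33.4 CPM in WT homecage, 39.0, 51.1 and 39.8 CPM in WT MWM and 43.8, 41.7 and 38.9 CPM in KIX/KIX MWM, and these groups overlapped throughout. In RNA-Seq 2 it was at 23.1, 21.6 and 23.9 CPM in WT homecage, 33.6, 29.0, 27.4 and 30.7 CPM in WT CFC, 29.1, 29.1, 30.9 and 28.9 CPM in KIX/KIX CFC and 21.3, 19.5, 27.0 and 18.1 CPM in KIX/KIX homecage. All 8 trained libraries of RNA-Seq 2 were above all 7 homecage libraries for *Tob2*, with KIX/KIX homecage replicate 3 the nearest to them. Its means ran KIX/KIX homecage, WT homecage, KIX/KIX CFC, WT CFC, with 1 step beyond the spread, from WT homecage to KIX/KIX CFC. The gene shares 289 exon bases with the antisense gene *Gm49476*.

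**Figure D1:**
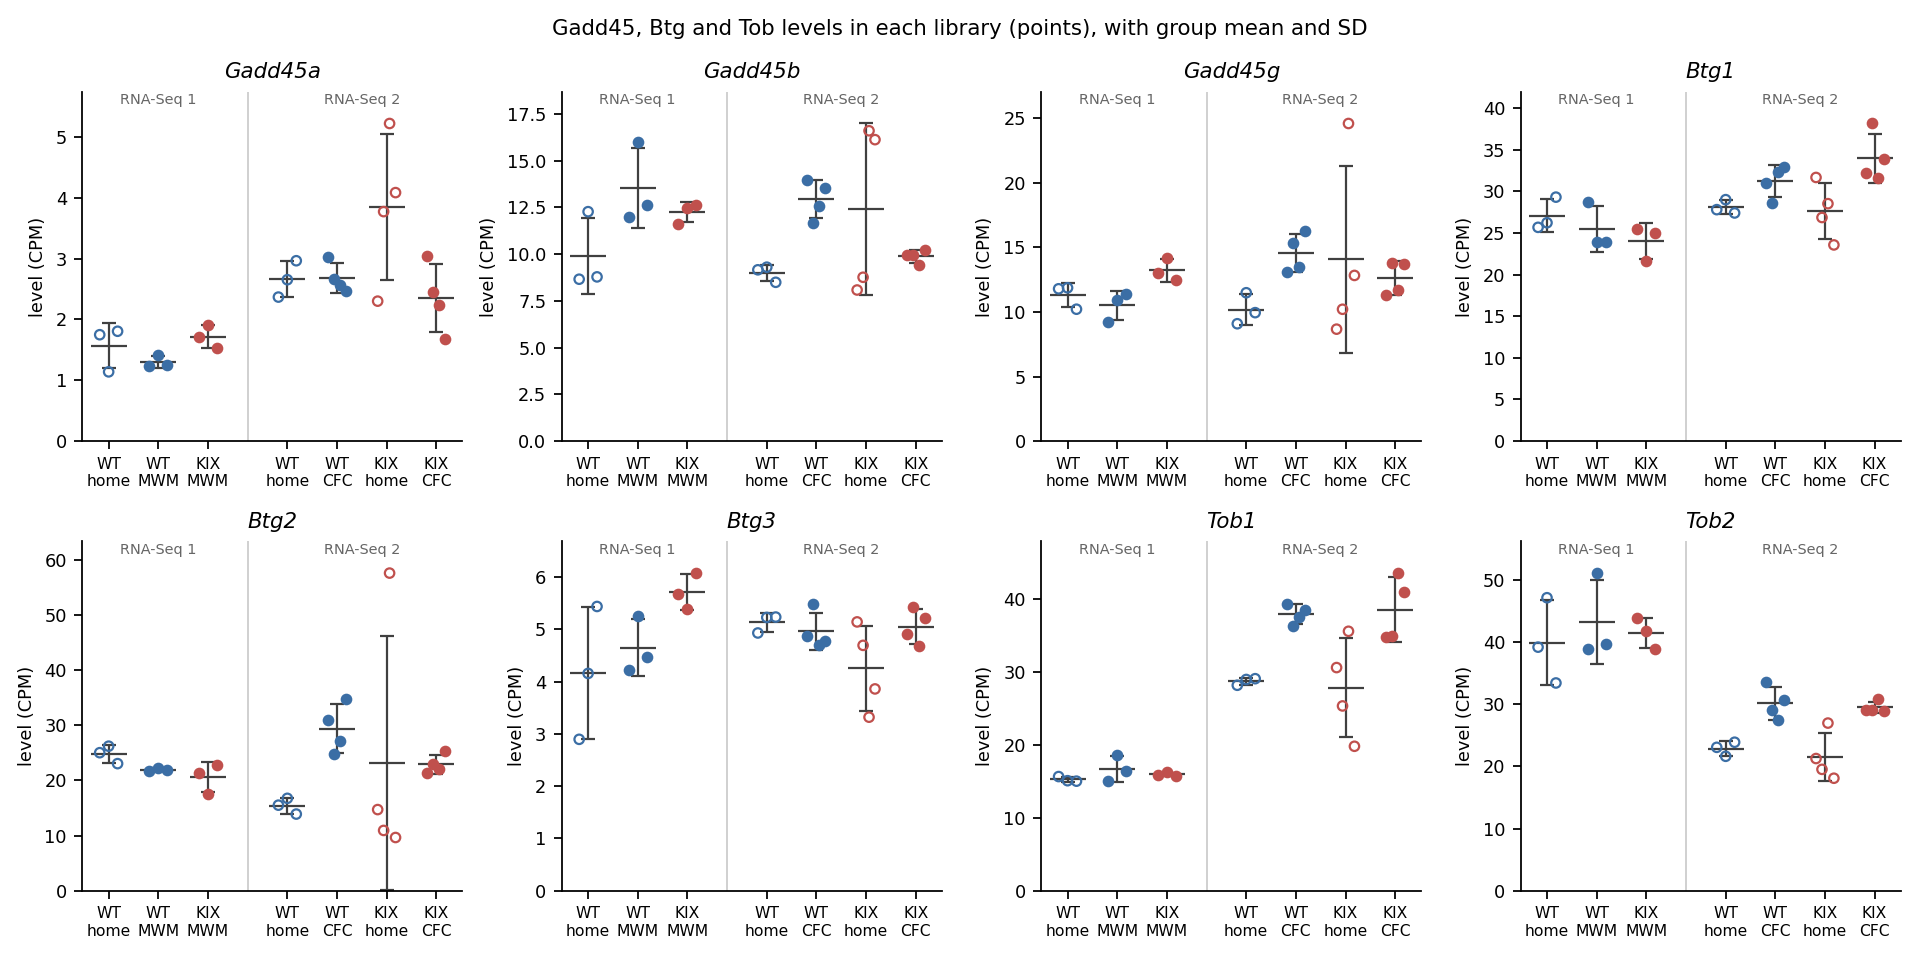
Levels of the 8 members (CPM) in all 24 libraries, 1 panel per gene, with blue points for WT and red for KIX/KIX libraries, open points for homecage and filled points for trained ones, and bars for the group mean and SD. *Tob2* in RNA-Seq 2 lay at 18.1 to 33.6 CPM with the trained libraries above the homecage libraries, and *Btg2* reached 57.6 CPM in KIX/KIX homecage replicate 3.

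Levels of different members can be set beside each other only per length, as CPM per kilobase of exon union (RPKM). Among the 9 libraries of RNA-Seq 1 the median RPKM level was highest for *Gadd45g* at 10.1 and then *Btg2* at 8.15, *Gadd45b* at 7.72, *Tob1* at 6.87, *Tob2* at 5.97 and *Btg1* at 4.82. *Btg3* and *Gadd45a* were the lowest members on that scale, at 1.31 and 0.869 RPKM. In RNA-Seq 2 the highest median RPKM level was that of *Tob1* at 15.3, before *Gadd45g* at 10.9, *Btg2* at 8.07, *Gadd45b* at 6.27, *Btg1* at 5.88 and *Tob2* at 4.12. *Gadd45a* and *Btg3* were again lowest, at 1.505 and 1.22 RPKM. The ranges overlapped between neighbours in both orders, except for *Btg1* (lowest 4.09 RPKM) and *Btg3* (highest 1.51 RPKM) in RNA-Seq 1. The experiments differ in library type, so the change of *Tob1* from 6.87 to 15.3 RPKM cannot be told apart from it. Relative to its mean CPM, *Btg2* varied the most over RNA-Seq 2 (coefficient of variation 51.4%) and *Btg1* the least (11.6%), and over RNA-Seq 1 *Btg3* varied the most (20.4%) and *Tob1* the least (6.999%).

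The first comparison asked which genes respond to learning in WT mice, over both tasks. *Gadd45b*, *Tob1* and *Tob2* rose. *Gadd45b* was higher in the trained libraries by 0.48 on the log2 scale (standard error 0.08, 1.39-fold), and 7 of 7 trained WT libraries were above the mean of their homecage group. *Tob1* was higher by 0.26 (standard error 0.04, 6 of 7 libraries) and *Tob2* by 0.26 (standard error 0.06, 5 of 7 libraries). For all 3 genes the trained and homecage libraries were separate in RNA-Seq 2 and overlapped in RNA-Seq 1. The edgeR test gave an adjusted p of 0.0205 for *Gadd45b*, 0.00901 for *Tob1* and 0.0473 for *Tob2*, over the 22038 genes tested and at a threshold of 0.05. Of the 7 members tested, 3 were called, all higher, where 231 of all genes tested (1.05%) were called and 89 (0.404%) were called higher. *Gadd45g* differed by 0.21 (standard error 0.07, adjusted p = 0.153), higher in 5 of 7 libraries, which did not pass. *Gadd45a*, at −0.11, *Btg3*, at 0.07, and *Btg1*, at 0.03 and −0.03 with GC-content normalization, did not pass either. *Btg2*, given without a test, differed by 0.38 (standard error 0.11), with the 4 WT CFC libraries above and the 3 WT MWM libraries below their homecage means. A change in cell number and a change in RNA per cell cannot be told apart in bulk tissue, here or in any comparison that follows.

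The calls of *Gadd45b*, *Tob1* and *Tob2* for learning depended on the RUVr factors (3 factors of unwanted variation estimated from residuals) and on the normalization. Without the factors, 0 of 7 members and 9 genes (0.0408%) were called by edgeR, with 1495 genes and 3 members at an unadjusted p under 0.05 and 34 genes called by DESeq2, *Gadd45b* and *Tob1* among them. With GC-content normalization and the factors, edgeR called 0 of 7 members and 38 genes (0.173%), with 2506 genes and 4 members at an unadjusted p under 0.05, and the adjusted p was 0.0558 for *Gadd45b* (log2 difference 0.58), 0.0558 for *Tob1* (0.23) and 0.140 for *Tob2* (0.31). *Tob2* also lost its call with TMM normalization (adjusted p = 0.0583) and by DESeq2 (0.492). Over the 7 other settings the adjusted p ran from 0.000647 to 0.140 for *Gadd45b*, from 0.00377 to 0.481 for *Tob1* and from 0.00764 to 0.723 for *Tob2*, while the log2 differences stayed at 0.47 to 0.58, 0.23 to 0.30 and 0.25 to 0.31. Libraries of the same replicate number resembled each other across WT groups, with a correlation of residuals of 0.1004 to 0.375 for each pair over 22408 genes, and with the replicate as a block beside the RUVr factors 905 genes (4.11%) and the same 3 members were called, while with the block alone only *Gadd45b* was (adjusted p = 0.0255, log2 difference 0.47, 7 of 7 libraries). *Gadd45b* was not called without WT homecage replicate 1 of RNA-Seq 2 (adjusted p = 0.0518, log2 difference 0.47), nor *Tob1* without WT MWM replicate 2 (0.0589, log2 difference 0.25). *Tob2* lost its call without WT MWM replicate 2 (adjusted p = 0.159) or 3 (0.0797), WT homecage replicate 1 of RNA-Seq 2 (0.0878), or WT CFC replicate 1 (0.0697) or 2 (0.0759), with log2 differences of 0.22 to 0.33 over the 13 libraries left out in turn. Without WT homecage replicate 3 of RNA-Seq 1, 2274 genes (10.1%) were called and the same 3 members among them.

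Each task was then fitted within its own experiment. After MWM, the WT log2 difference was 0.45 (standard error 0.15, adjusted p = 0.330) for *Gadd45b*, higher in 3 of 3 libraries, and it was 0.13 (standard error 0.10, adjusted p = 0.645) for *Tob1*, higher in 2 of 3. *Tob2*, at 0.12, was above the homecage mean in 1 of 3 libraries, and *Gadd45g*, at −0.10, in 1 of 3. *Gadd45a*, at −0.28 (standard error 0.22, adjusted p = 0.637), was below it in 3 of 3, *Btg1*, at −0.09, was below it in 2 of 3, and *Btg3*, at 0.14, was above it in 3 of 3. edgeR called 0 of the 7 members tested after MWM, where 3 of 22276 genes (0.0135%) were called, with 2418 genes and 1 member at an unadjusted p under 0.05, and DESeq2 called 80 genes and 0 members. Without WT homecage replicate 3 of RNA-Seq 1, 2418 genes (10.7%) and still 0 of 7 members were called by edgeR, with 2 members at an unadjusted p under 0.05. The part of that library's choroid plexus sum in this count was not tested.

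After CFC, every WT library was above the homecage mean, and separate from the homecage libraries, for *Gadd45b* (0.52, standard error 0.20, adjusted p = 1.00), *Gadd45g* (0.51, standard error 0.26, adjusted p = 1.00), *Tob1* (0.40, standard error 0.14, adjusted p = 1.00) and *Tob2* (0.40, standard error 0.10, adjusted p = 1.00), all as log2 differences in 4 of 4 libraries. *Btg1* was at 0.14 with 4 of 4 libraries higher and some overlap, *Gadd45a* at 0.02 and *Btg3* at −0.05. edgeR called 0 of the 7 members tested and 0 of 18851 genes (0%), with 450 genes and 3 members at an unadjusted p under 0.05, and DESeq2 called 0 genes. That fit shares its estimate of the spread with KIX/KIX homecage, and without replicate 3 of that group 17 genes (0.0892%) and 0 of 7 members were called, with *Tob2* at an adjusted p of 0.0736 and a log2 difference of 0.40. With only the WT CFC and WT homecage groups in the fit, 21 of 18115 genes (0.116%), all higher, and 1 of 7 members were called, *Tob1*, at a log2 difference of 0.40 in 4 of 4 libraries (adjusted p = 0.0123). The adjusted p of *Tob1* over the other settings of this comparison ran from 0.0123 to 1, and that of *Tob2* with 1 library left out from 0.0736 to 1.00.

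*Btg2* was chosen in part because its response differed between the tasks, so its values are a description. Its log2 difference from WT homecage was −0.17 (standard error 0.11) after MWM, lower in 3 of 3 libraries, and 0.92 (standard error 0.45) after CFC, higher in 4 of 4 libraries, which is 1.89-fold. The difference between those responses was 1.09 on the log2 scale, from a separate fit of the WT groups alone. It is given without a standard error, since this difference is what chose *Btg2*. For the other members, the difference between the tasks was tested as an interaction, with the library type differing between them. *Gadd45g* had a difference of 0.61 (standard error 0.17, adjusted p = 0.534) there, with 4 of 4 WT CFC libraries above their homecage mean and 1 of 3 WT MWM libraries above theirs. It was followed by *Gadd45a* at 0.30, *Tob2* at 0.28, *Tob1* at 0.27, *Btg1* at 0.24, *Gadd45b* at 0.06 and *Btg3* at −0.19. edgeR called 0 of the 7 members and 3 of 22038 genes (0.0136%), with 1645 genes and 2 members at an unadjusted p under 0.05, and DESeq2 called 29 genes and 0 members. Without WT homecage replicate 3 of RNA-Seq 1, 892 genes (3.97%) and 1 of 7 members were called, *Gadd45g*, at a difference of 0.68 (adjusted p = 0.0408), where its adjusted p over all 13 libraries left out ran from 0.0408 to 0.832.

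The next comparison asked which genes differ between KIX/KIX and WT mice after learning, over both tasks. *Gadd45b* fell. Its level in trained KIX/KIX libraries differed from trained WT by −0.26 on the log2 scale (standard error 0.06, 0.833-fold), and 7 of 7 mutant libraries were below the WT mean of their experiment. The groups were separate after CFC and overlapped after MWM. *Btg2*, given without a test, differed by −0.23 (standard error 0.07) and was lower in 6 of 7 libraries. The remaining members lay nearer 0, with *Btg3* at 0.15, *Gadd45a* at 0.08, *Gadd45g* at 0.04, *Btg1* at 0.04 and at −0.02 with GC-content normalization, *Tob1* at −0.01 and *Tob2* at −0.04. Of the 7 members tested, edgeR called 1, *Gadd45b* (adjusted p = 0.0225), where 610 of 21489 genes (2.84%) were called and 356 (1.66%) were called lower. The rise of *Gadd45b* with learning and its lower level in mutants share the same 7 trained WT libraries.

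The *Gadd45b* call in trained mutants also depended on the 4 RUVr factors of that fit. Without the factors, 0 of 7 members and 4 genes (0.0186%) were called by edgeR, with 1893 genes and 1 member at an unadjusted p under 0.05 and 81 genes called by DESeq2, and *Gadd45b* was at −0.27, lower in 7 of 7 libraries, with an adjusted p of 0.287. Its adjusted p was 0.0862 by DESeq2, 0.145 with GC-content normalization, 0.374 with a replicate block alone and 0.00125 with the block and the factors, and over all 7 other settings it ran from 0.00125 to 0.374 with log2 differences of −0.27 to −0.26. *Gadd45b* was no longer called without WT MWM replicate 2 (adjusted p = 0.0718, log2 difference −0.23) or without WT CFC replicate 1 (0.0655, log2 difference −0.23), among 14 libraries left out in turn.

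Within the MWM experiment, all 3 KIX/KIX libraries were above all 3 WT libraries for *Gadd45a*, *Gadd45g* and *Btg3*. Their log2 differences were 0.40 (standard error 0.22, adjusted p = 0.813) for *Gadd45a*, 0.33 (standard error 0.12, adjusted p = 0.813) for *Gadd45g* and 0.30 (standard error 0.19, adjusted p = 0.813) for *Btg3*, in 3 of 3 libraries each. *Gadd45b* was at −0.14, *Btg1* at −0.08 and *Tob1* at −0.06, each lower in 3 of 3 libraries, *Tob2* was at −0.06, and *Btg2* was at −0.09 with no test. Without WT MWM replicate 2, *Gadd45b* was at −0.0066 and lower in 1 of 3 libraries. None of the 7 members tested and 0 of 22276 genes (0%) were called by edgeR, with 1286 genes and 1 member at an unadjusted p under 0.05, and DESeq2 called 7 genes and 0 members. Within the CFC experiment, *Gadd45b* differed by −0.38 (standard error 0.18, adjusted p = 1.00) and all 4 KIX/KIX libraries were below all 4 WT libraries. *Gadd45g*, at −0.20, was lower in 4 of 4 libraries and *Btg1*, at 0.13, was higher in 4 of 4, with overlap for each, and *Btg2* was at −0.35 (standard error 0.40) with no test, lower in 4 of 4. *Gadd45a* was at −0.16, *Btg3* at 0.03, *Tob1* at 0.02 and *Tob2* at −0.03. edgeR called 0 of the 7 members tested after CFC and 2 of 18851 genes (0.0106%), with 441 genes and 0 members at an unadjusted p under 0.05, and DESeq2 called 4 genes and 0 members. Whether the genotype difference of *Gadd45g* or *Btg1* differed between the tasks was not tested.

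Untrained KIX/KIX and WT mice were compared in RNA-Seq 2. *Gadd45a*, at a log2 difference of 0.52 (standard error 0.25, adjusted p = 0.798), was above the WT mean in 3 of 4 mutant libraries. *Gadd45g*, at 0.44 (standard error 0.32, adjusted p = 0.856), was higher in 3 of 4, and *Gadd45b*, at 0.43 (standard error 0.26, adjusted p = 0.826), in 2 of 4, replicates 3 and 4. *Btg3* was at −0.25, *Tob2* at −0.09, *Tob1* at −0.04 and *Btg1* at −0.02, and *Tob1* and *Btg1* turned to 0.07 and 0.05 with a replicate block. Over 5 other settings the *Gadd45b* difference ran from 0.21 to 0.45. *Btg2*, without a test, was at 0.56 (standard error 0.57) with all 4 mutant libraries and at −0.38 (standard error 0.16) without replicate 3, since the other 3 mutant libraries were below the WT mean. Without that library *Gadd45a* was at 0.34, *Gadd45g* at 0.04 and *Gadd45b* at 0.26. edgeR called 0 of the 7 members tested and 2 of 18682 genes (0.0107%), with 1144 genes and 0 members at an unadjusted p under 0.05, and DESeq2 called 59 genes and 0 members. The summed astrocyte marker level (5 markers, *Slc1a2* the most abundant, none at 0) was 2783, 3084, 3709 and 4572 CPM in KIX/KIX homecage against 2676, 2645 and 2778 CPM in WT homecage. For excitatory neurons, inhibitory neurons, microglia and endothelium the summed levels of the KIX/KIX and WT homecage libraries overlapped. Their means in KIX/KIX and WT were 5556 and 5478 CPM, 727 and 745 CPM, 208 and 202 CPM, and 190 and 174 CPM, in that order. Single markers from these lists differed in 4 of 4 mutant libraries and do not stand for their lists. Excitatory *Wfs1* (−0.41, standard error 0.06) and inhibitory *Sst* (−0.25) were lower. Excitatory *Slc17a7* (0.24), microglial *C1qa* (0.23) and endothelial *Cldn5* (0.21) were higher. None of these was called by edgeR, and the part of any marker in the values of the members was not tested.

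The response to CFC within KIX/KIX mice is the comparison in which *Btg2* was tested. *Tob2* was at a log2 difference of 0.47 (standard error 0.10, adjusted p = 0.0931) and *Tob1* at 0.47 (standard error 0.13, adjusted p = 0.158), each higher than the homecage mean in 4 of 4 trained libraries, and for *Tob2* the trained and homecage libraries were separate. *Btg1* was at 0.30 (standard error 0.08, adjusted p = 0.166), higher in 4 of 4, and *Gadd45a* at −0.66 (standard error 0.21, adjusted p = 0.210), lower in 4 of 4. *Btg2* was at 0.02 (standard error 0.41, adjusted p = 0.993), higher in 1 of 4 libraries, against a homecage mean that replicate 3 raised. *Btg3* was at 0.23, *Gadd45g* at −0.13 and *Gadd45b* at −0.29, the last lower in 4 of 4 libraries than a homecage mean raised by replicates 3 and 4. edgeR called 0 of the 8 members and 0 of 18851 genes (0%), with 2457 genes and 4 members at an unadjusted p under 0.05, where DESeq2 called 300 genes (1.59%) and 2 members, *Tob1* (log2 difference 0.46, adjusted p = 0.0312) and *Tob2* (0.46, 0.00311), each higher in 4 of 4 libraries. Over the other settings the adjusted p ran from 0.0312 to 0.491 for *Tob1* and from 0.00311 to 0.491 for *Tob2*. The summed astrocyte level was 2653, 2779.8, 2591 and 2593 CPM after CFC, below the homecage sums of KIX/KIX mice, with *Gfap* at a log2 difference of −1.56 (standard error 0.31, adjusted p = 0.0931) and *Slc1a2* at −0.21, each lower in 4 of 4 libraries, and a list median of −0.21 with 4 of 5 markers below 0 and 1 above. Of the 5 markers edgeR called 0 and DESeq2 called 2, both lower, *Gfap* was at −1.54 without homecage replicate 3, and the part of this list in the values of the members was not tested.

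The response of KIX/KIX mice turned on which homecage library was kept. Without KIX/KIX homecage replicate 3, edgeR called 16 of 19066 genes (0.0839%) and 2 of 8 members, *Btg2* and *Tob2*, and since that library was singled out by genes like *Btg2* and held the highest *Btg2* level, these calls are no test of a rise. *Btg2* was then at a log2 difference of 0.95 (standard error 0.14), with 21.4, 22.9, 22.1 and 25.4 CPM in the 4 trained libraries above 14.7, 10.9 and 9.65 CPM in the 3 homecage libraries, and *Tob2* was at 0.58 (standard error 0.07), also higher in 4 of 4. *Tob1* was at 0.59 (standard error 0.11), in 4 of 4, *Gadd45g* was at 0.27 and *Gadd45b* at −0.12. Without KIX/KIX homecage replicate 1 instead, 999 genes (5.45%) and 4 of 8 members were called, *Gadd45a* lower at −0.85 (standard error 0.18, adjusted p = 0.0131) and *Btg1*, *Tob1* and *Tob2* higher by 0.37 (standard error 0.08, adjusted p = 0.0171), 0.52 (standard error 0.14, adjusted p = 0.0440) and 0.46 (standard error 0.11, adjusted p = 0.0242), each in 4 of 4 libraries. Leaving out replicate 1 gave the most calls of the 15 such fits and was picked out after seeing them. It held the lowest *Gadd45a* (2.30 CPM) and the highest *Btg1* (31.7 CPM) of KIX/KIX homecage, so these calls are a description too. Over the 15 libraries left out in turn, the adjusted p of *Tob2* ran from 0.00238 to 0.245, that of *Tob1* from 0.0440 to 0.360, that of *Btg1* from 0.0171 to 0.393 and that of *Gadd45a* from 0.0131 to 0.436. KIX/KIX homecage replicate 3 was a library of 16567226 counts with 2557 CPM of choroid plexus markers, against 214, 116 and 724 CPM in replicates 1, 2 and 4, and the part of any of these in its immediate early gene levels was not tested.

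Whether the response to CFC differed between the genotypes was tested as an interaction. The KIX/KIX response was below the WT response for *Gadd45b*, at −0.81 (standard error 0.27, adjusted p = 0.950) on the log2 scale, for *Gadd45a*, at −0.68 (standard error 0.31, adjusted p = 0.950), and for *Gadd45g*, at −0.64 (standard error 0.35, adjusted p = 0.950). The responses on each side were −0.29 in mutants and 0.52 in WT for *Gadd45b*, −0.66 and 0.02 for *Gadd45a*, and −0.13 and 0.51 for *Gadd45g*, in 4 of 4 libraries on each side but for *Gadd45a* in WT, with 2 of 4. *Btg3* was at 0.28, *Btg1* at 0.15, *Tob1* at 0.07 and *Tob2* at 0.07. *Btg2*, without a test, was at −0.90 (standard error 0.60) with all libraries and at 0.03 (standard error 0.19) without KIX/KIX homecage replicate 3, and *Gadd45b* was then at −0.64 and *Gadd45g* at −0.24. edgeR called 0 of the 7 members tested and 0 of 18851 genes (0%), with 903 genes and 2 members at an unadjusted p under 0.05, and DESeq2 called 1 gene and 0 members. The astrocyte marker *Gfap* was at −1.53 (standard error 0.45, adjusted p = 0.950) there and *Gja1* on the other side at 0.15, with 4 of 5 astrocyte markers below 0 at a median of −0.27, and their part was not tested. Without KIX/KIX homecage replicate 1, 63 of 18332 genes (0.344%) and 0 of 7 members were called by edgeR, with 2012 genes and 4 members at an unadjusted p under 0.05.

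**Figure D2:**
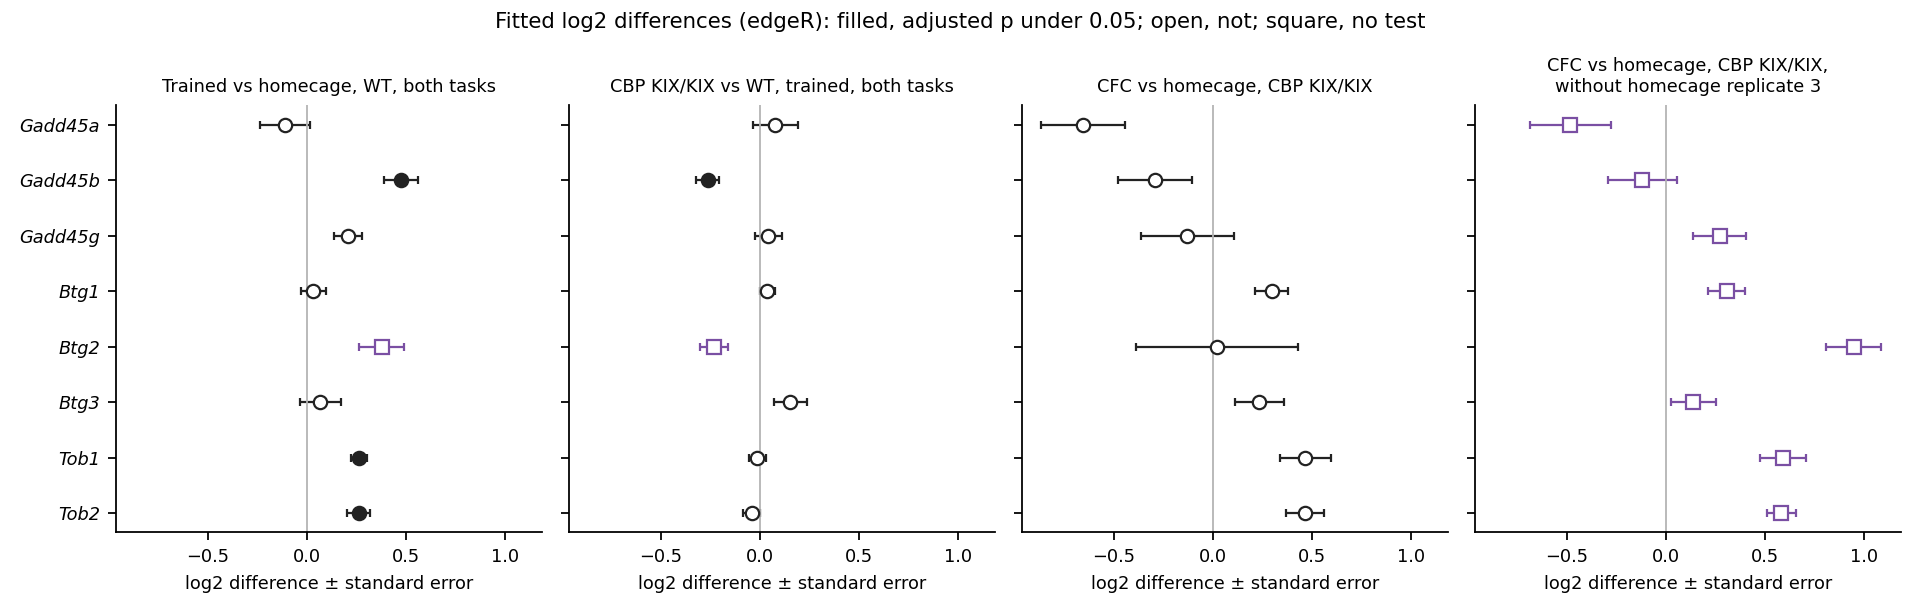
Fitted log2 differences of the 8 members (edgeR, bars of 1 standard error) for WT learning, for trained KIX/KIX against trained WT, and for CFC against homecage within KIX/KIX with and without homecage replicate 3, with filled points at an adjusted p under 0.05, open points above it and squares where no test is given (*Btg2* where WT libraries enter, and all members without that replicate). *Gadd45b* lay at 0.48 for WT learning and at −0.26 in trained mutants, and *Btg2* within mutants at 0.02 with all libraries and at 0.95 without that replicate.

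The immediate early genes, a list of 11 activity-induced genes that was set beside the members, rose with learning in WT mice and 6 of them fell in trained mutants. All 11 were called higher in trained WT libraries, with a median log2 difference of 0.90 against −0.03 over all genes tested, among them *Egr1* at 0.97 (standard error 0.07, adjusted p = 3.48e-05), *Junb* at 0.90 (standard error 0.07, adjusted p = 3.48e-05), *Arc* at 1.28 (standard error 0.10, adjusted p = 4.81e-05) and *Egr2* at 2.57 (standard error 0.24, adjusted p = 0.000171), each in 7 of 7 libraries. In trained mutants 6 of 11 were called lower and none higher, with a median of −0.31 against −0.0065, among them *Junb* at −0.31 (standard error 0.04, adjusted p = 0.000655), *Fos* at −0.51 (standard error 0.06, adjusted p = 0.000655), *Nr4a1* at −0.31 (standard error 0.05, adjusted p = 0.00607) and *Dusp1* at −0.36 (standard error 0.06, adjusted p = 0.00900), each lower in 7 of 7. Without RUVr factors, 6 of 11 were called higher with learning and 0 of 11 lower in mutants. *Fos* (1.14, standard error 0.14, adjusted p = 0.0125) and *Egr2* (2.21, standard error 0.29, adjusted p = 0.0229) were called higher after MWM alone, each in 3 of 3 libraries. With a replicate block edgeR called 1 gene after MWM, a lower one, so neither passed there. Nor did any gene pass without WT homecage replicate 1 of RNA-Seq 1 or WT MWM replicate 1 or 2. *Fos* rose more after CFC than after MWM (1.66, standard error 0.22, adjusted p = 0.0318, with 4 of 4 CFC and 3 of 3 MWM libraries above their homecage means). No gene passed that interaction test without WT MWM replicate 1 or 2, WT homecage replicate 1 or 3 of RNA-Seq 2, or WT CFC replicate 1, 3 or 4. Like *Btg2*, this list turned on KIX/KIX homecage replicate 3: after CFC in mutants 0 of 11 were called with a median of −0.17, and without that library, which these same genes set apart, the median was 1.29, given with no test. After CFC in WT, 11 of 11 rose with only the WT groups in the fit, at a median of 1.21. With the KIX/KIX groups in the fit edgeR and DESeq2 each called 0 of 11 at medians of 1.21 and 1.20, and edgeR called 11 of 11 at a median of 1.21 without that replicate, which is in neither group of this comparison.

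**Figure D3:**
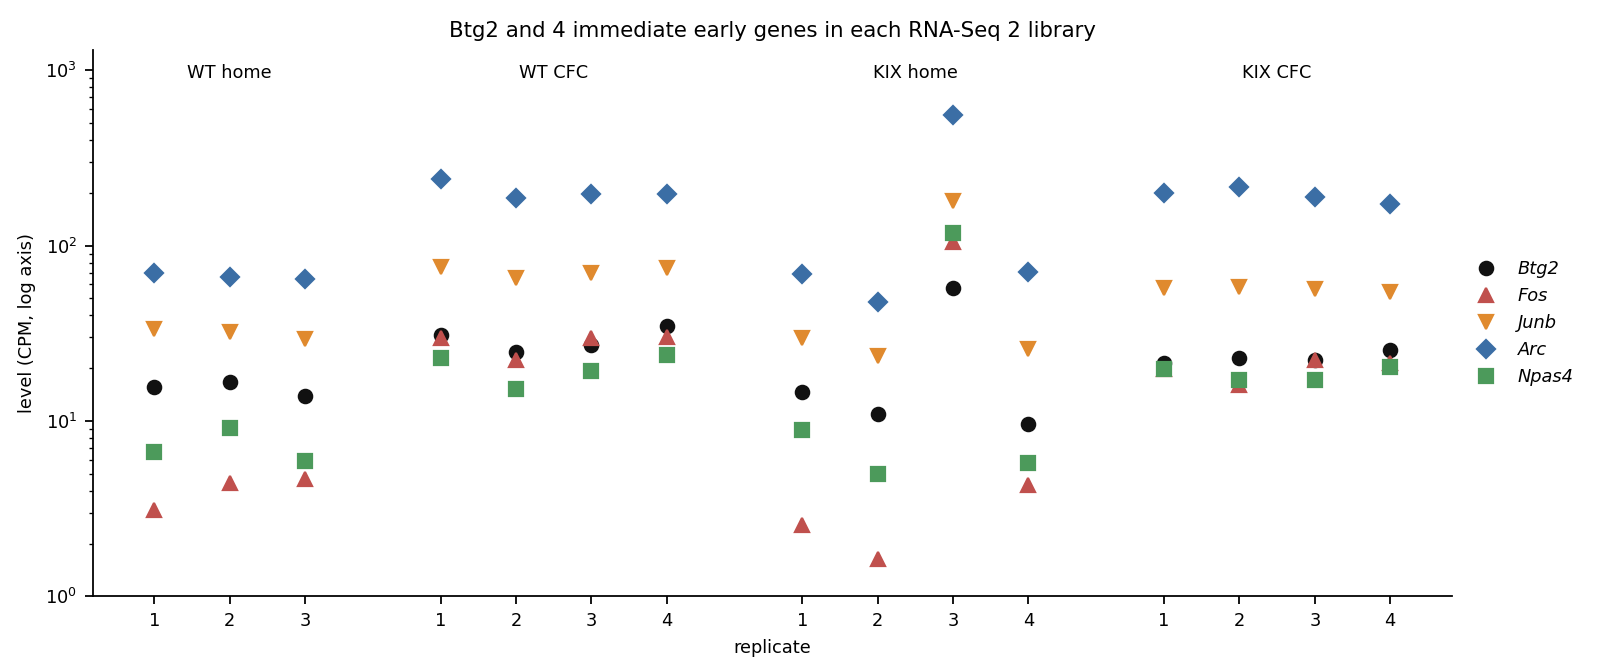
Levels of *Btg2* and of 4 immediate early genes (CPM, log axis) in each of the 15 libraries of RNA-Seq 2, by group and replicate, with 1 symbol per gene. In KIX/KIX homecage replicate 3 all 5 genes stood at their highest, with *Btg2* at 57.6 CPM, *Fos* at 105 CPM and *Arc* at 553 CPM.

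The partners through which GADD45, BTG and TOB proteins act were read as lists of 4 to 16 genes, where 1.05% of all genes were called for learning and 2.84% for the mutants, so that a count of 0 is near the background share. Among 16 genes of the CCR4-NOT deadenylase and its relatives, 0 were called in either combined comparison, with a median log2 difference of 0.0041 for WT learning (8 of 16 above 0) and 0.02 for trained mutants against trained WT (12 of 16). The lowest p values there belonged to *Cnot3* (−0.14, standard error 0.03, adjusted p = 0.0681, lower in 5 of 7 libraries) and *Cnot1* (0.12, standard error 0.04, adjusted p = 0.122, higher in 6 of 7) for learning, and to *Cnot2* (0.12, standard error 0.03, adjusted p = 0.0734, higher in 7 of 7) and *Cnot7* (0.08, standard error 0.02, adjusted p = 0.0848, higher in 7 of 7) for the mutants. Of 10 MAP kinase partners of GADD45, 0 were called, with medians of 0.04 and −0.03, and the lowest p values were those of *Mapk8* (0.09) and *Mapk10* (0.08) for learning and of *Mapk14* (−0.08) and *Map2k3* (−0.18) for the mutants. The 4 cell cycle partners (*Pcna*, *Cdkn1a*, *Cdk1*, *Ccnb1*) gave 0 calls, with medians of −0.04 and 0.01, *Ccnb1* at 0.40 and *Pcna* at 0.05 for learning, and *Cdkn1a*, which encodes p21, at 0.27 (standard error 0.11, adjusted p = 0.193), higher in 7 of 7, and *Pcna* at 0.02 for the mutants.

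Of 11 genes of DNA demethylation and its repair partners, 0 were called, with medians of −0.03 for learning and −0.0091 for the mutants, *Dnmt3a* at −0.10 and *Dnmt1* at −0.07 for the former and *Tet3* at −0.13 and *Ercc4* at 0.09 for the latter. Among 13 targets and regulators of p53, which also drives *Gadd45a* and *Btg2*, 1 rose with learning, *Plk2*, a kinase gene that is itself induced by synaptic activity, by 0.20 (standard error 0.03, adjusted p = 0.0111) in 7 of 7 libraries, and the list's median was 0.01. In trained mutants 0 of the 13 were called, the median was −0.04, and *Zmat3* at −0.15 and *Sesn1* at 0.10 had the lowest p. The 8 SMAD and TGF-beta partners of TOB gave 0 calls at medians of −0.02 and −0.02, with *Tgfb1* at −0.19 and *Smad5* at 0.05 for learning and *Smad7* at −0.14 and *Tgfb2* at 0.14 for the mutants. *Gadd45gip1*, whose protein binds GADD45, was at −0.03 and 0.07 and was not called. The edgeR counts of 0 for these lists stand beside 3807 and 3909 genes of all kinds at an unadjusted p under 0.05 for learning and for the mutants, and 34 and 81 genes called by DESeq2. In the comparisons within 1 experiment and in both interactions, edgeR with all libraries called no gene of any list other than *Fos* and *Egr2*, as given above.

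In the comparisons over both tasks, edgeR called 2 cell type markers for learning and 5 for the mutants. The summed choroid plexus level (5 markers, *Ttr* the most abundant, none at 0 in every library) was 138, 153 and 1760.2 CPM in WT homecage, 191, 603 and 1736 CPM in WT MWM and 1256, 2866 and 212 CPM in KIX/KIX MWM of RNA-Seq 1. In RNA-Seq 2 it was 26.1, 1633 and 27.5 CPM in WT homecage, 33.5, 4078, 1679 and 1776 CPM in WT CFC, 42.3, 74.9, 3809 and 2061 CPM in KIX/KIX CFC and 214, 116, 2557 and 724 CPM in KIX/KIX homecage. These sums differed between libraries of the same group far more than between groups. With learning, 1 of 5 was called higher (*Folr1*, 1.51, standard error 0.33, adjusted p = 0.0475, in 4 of 7 libraries, list median 1.51), and 1 of 5 endothelial markers was called lower (*Cldn5*, −0.49, standard error 0.09, adjusted p = 0.0291, in 7 of 7, list median −0.10). In trained mutants, 2 of 5 astrocyte markers fell, *Gfap* at −0.29 (standard error 0.04, adjusted p = 0.00191) in 6 of 7 libraries and *Aldh1l1* at −0.26 (standard error 0.04, adjusted p = 0.00432) in 7 of 7, and *Gja1* rose by 0.16 (standard error 0.03, adjusted p = 0.00807) in 7 of 7, with a list median of −0.02. *Prox1* of the 6 excitatory markers rose by 0.21 (standard error 0.05, adjusted p = 0.0421) in 6 of 7 libraries and *Sst* of the 5 inhibitory markers fell, at −0.19 (standard error 0.05, adjusted p = 0.0451) in 7 of 7, at list medians of −0.04 and −0.04. None of these marker calls was made without RUVr factors, and the part of any marker list in the values of *Gadd45b*, *Tob1* and *Tob2* was not tested.

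The remaining marker lists of each comparison gave 0 calls. With learning the list medians were −0.08 for excitatory neurons, −0.02 for inhibitory neurons, 0.01 for astrocytes, −0.01 for oligodendrocytes and −0.05 for microglia, and in trained mutants they were −0.06 for oligodendrocytes, −0.07 for microglia, 0.04 for endothelium and −0.50 for choroid plexus. Summed levels ran over the 9 libraries of RNA-Seq 1 and the 15 of RNA-Seq 2 from 574 to 687 and 645 to 854 CPM for inhibitory neurons (*Gad1* the most abundant), from 2657 to 3403 and 2591 to 4572 CPM for astrocytes (*Slc1a2*), from 2426 to 4146 and 3497 to 4879.6 CPM for oligodendrocytes (*Mbp*), from 271 to 331 and 175 to 227 CPM for microglia (*Csf1r*) and from 113 to 195 and 156 to 201 CPM for endothelium (*Flt1*). No marker of any list was at 0 in a whole experiment.

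Likeness between genes was described by the Pearson correlation of log2 CPM over the 24 libraries, each centred on the mean of its experiment, among 21350 genes, and with no p, since libraries share group, run and depth. *Tob1* and *Tob2* were each other's closest gene, at r = 0.871, followed for *Tob1* by *Dusp1* (0.845) and *Rbm12b1* (0.830) and for *Tob2* by *Dusp1* (0.859) and *Ddit4* (0.831). *Btg2* was most like *Ier2* (0.923), *Junb* (0.908) and *Npas4* (0.899). For *Gadd45g* the closest were *Arl4d* (0.882), *Ccn1* (0.863) and *Npas4* (0.816), and for *Gadd45b* they were *Dusp5* (0.840), *Coq10b* (0.799) and *Arl4d* (0.773). *Gadd45a* was most like *Cpne9* (0.812), *Gde1* (0.796) and *Chgb* (0.784), *Btg1* like *Cecr2* (0.836), *Ilkap* (0.825) and *Gm5069* (0.812), and *Btg3* like *Kcnh7* (0.844), *Zfp952* (0.824) and *Zdhhc15* (0.822). Without KIX/KIX homecage replicate 3, a choice made after seeing the data, over 23 libraries, the list for *Btg2* became *Dusp1* (0.943), *Ier2* (0.881) and *Sik1* (0.874) and that for *Tob2* became *Npas4* (0.894), *Ier2* (0.886) and *Dusp1* (0.876), while *Tob1* kept *Tob2* (0.871) and *Dusp1* (0.854), followed by *Btg2* (0.840). The list for *Gadd45g* became *Arl4d* (0.776), *Ccn1* (0.756) and *Gm3534* (0.735), with *Npas4* at 0.659, and that for *Gadd45a* became *Cpne9* (0.756), *Gm8995* (0.752) and *Chgb* (0.748). *Gadd45b* kept its genes, *Dusp5* (0.803), *Arl4d* (0.748) and *Coq10b* (0.748), *Btg1* was then most like *Cecr2* (0.835), *C130036L24Rik* (0.825) and *Ilkap* (0.824), and *Btg3* like *Kcnh7* (0.863), *3830406C13Rik* (0.852) and *C630043F03Rik* (0.846). The pairs of members whose correlation moved the most when that library was left out were *Gadd45a* with *Btg2*, from −0.00138 to −0.502, *Gadd45a* with *Gadd45g*, from 0.399 to 0.0389, *Gadd45g* with *Btg3*, from −0.248 to 0.0971, and *Btg2* with *Btg3*, from −0.230 to 0.0652. *Gadd45g* with *Btg2* went from 0.716 to 0.535 and *Gadd45b* with *Gadd45g* from 0.655 to 0.551, while *Btg2* with *Tob1* went from 0.732 to 0.840 and *Btg2* with *Tob2* from 0.689 to 0.813.

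Promoters were read because CREB, which binds the KIX domain of CBP, and CLOCK with BMAL1 recognise short known elements. RefSeq promoters of 300 bases (250 before to 50 after the start, build GRCm38.p6) matched all 8 members by symbol, with 9 promoters since *Btg3* has 2. On both strands, the full CRE, TGACGTCA, was in 588 of 32851 promoters (1.79%) and in that of *Btg2* alone among the members. The CRE core, TGACG, which the full CRE contains, was in 6837 promoters (20.8%) and in those of *Btg1*, *Btg2* and *Tob1*. The E-box, CACGTG, was in 2349 promoters (7.15%) and in those of *Gadd45b* and *Gadd45g*. None of these letters were in the windows of *Gadd45a*, *Btg3* and *Tob2*. A match is a description of the sequence, not a site that a factor was seen to bind. Shown 5′ to 3′ on the gene's own strand, with the matched letters in capitals, are *Btg2* (chr1:134079106-134079405, minus strand) for its full CRE, *Gadd45b* (chr10:80929841-80930140, plus strand) and *Gadd45g* (chr13:51846425-51846724, plus strand) for their E-boxes, and *Tob1* (chr11:94211204-94211503, plus strand) for its CRE core:
Btg2: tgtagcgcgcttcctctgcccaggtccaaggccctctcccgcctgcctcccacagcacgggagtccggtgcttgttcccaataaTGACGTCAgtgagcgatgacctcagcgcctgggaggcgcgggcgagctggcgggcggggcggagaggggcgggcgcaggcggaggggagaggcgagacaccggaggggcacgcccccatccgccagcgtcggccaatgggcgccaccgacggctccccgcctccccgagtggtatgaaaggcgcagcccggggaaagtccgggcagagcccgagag
Gadd45b: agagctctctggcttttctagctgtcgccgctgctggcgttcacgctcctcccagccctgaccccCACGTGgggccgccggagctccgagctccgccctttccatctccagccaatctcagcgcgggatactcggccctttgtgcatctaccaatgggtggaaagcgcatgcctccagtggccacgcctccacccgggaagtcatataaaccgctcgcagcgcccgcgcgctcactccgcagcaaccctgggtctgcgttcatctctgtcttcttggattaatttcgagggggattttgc
Gadd45g: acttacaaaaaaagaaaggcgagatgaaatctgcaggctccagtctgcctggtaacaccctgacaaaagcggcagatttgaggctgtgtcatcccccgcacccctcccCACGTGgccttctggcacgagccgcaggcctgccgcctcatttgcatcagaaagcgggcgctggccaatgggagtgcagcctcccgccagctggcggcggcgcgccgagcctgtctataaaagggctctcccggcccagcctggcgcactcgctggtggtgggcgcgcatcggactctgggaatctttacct
Tob1: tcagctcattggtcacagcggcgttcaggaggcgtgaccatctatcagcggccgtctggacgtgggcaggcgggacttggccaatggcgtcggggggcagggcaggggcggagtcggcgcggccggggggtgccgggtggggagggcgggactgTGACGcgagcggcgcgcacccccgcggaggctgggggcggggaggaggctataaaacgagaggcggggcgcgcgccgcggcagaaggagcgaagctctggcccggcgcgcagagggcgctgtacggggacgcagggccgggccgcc
The CRE of *Btg2* began 166 bases before the start, the CRE core of *Tob1* 96 bases before it, and the E-boxes of *Gadd45b* and *Gadd45g* 185 and 142 bases before it.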

How the data were processed

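The authors deposited 1 table of gene counts for 24 libraries, which the submitters' processing notes describe as reads aligned with STAR and counted with featureCounts 1.4.4, with SAMtools 1.6, on mm10 (GRCm38). The release of the annotation and the strand setting of the counting are not given in the sources used here, so *Gadd45a*, *Btg3* and *Tob2*, which overlap genes of the opposite strand, have less certain values. Symbols were matched by Ensembl identifier. Members and lists were chosen with earlier results of these data known.

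All genes were tested with the edgeR 4.0.16 quasi-likelihood test (R 4.3.3) after filterByExpr and upper-quartile normalization, with Benjamini-Hochberg adjustment over all genes tested and a threshold of 0.05. The combined fits of learning and of genotype over both tasks held the experiment as a term and 3 (learning) or 4 (genotype) RUVr factors. The learning by task interaction and the fits within 1 experiment held no RUVr factors. The homecage genotype fit held its pair of groups alone. CPM and RPKM were computed from the same normalization, and log2 CPM for likeness used a prior count of 2. The alternatives were TMM normalization, no filter on low counts, DESeq2 1.42.0 with its own size factors, a replicate block with and without RUVr factors, no RUVr factors, GC-content normalization in 10 bins, only the pair of groups compared, and leaving out each library in turn. DESeq2 gave no p for *Btg2* in the mutant CFC comparison.

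Every member was named in every comparison. In the comparisons over both tasks, genes of each other list past the threshold were named, at most the 4 with the lowest p. Where none passed, the 2 with the lowest p were given for lists of partners and pathways, and the median for marker lists. In the other comparisons only list genes past the threshold and some cell type markers were named. For likeness, the 3 genes with the highest correlation were named.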

Additional observations from a re-analysis of the deposited data

Results flagged for a closer look

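Among the 4-library groups of the 8 members, without *Btg2* in WT CFC, 23 were tested for a library far from the others (the gap to its nearest neighbour over the range of the group), and 2 passed, where chance gives about 1 in 20 groups. The same libraries enter for every gene, so the groups are not independent, and no excess over chance is read from 2 of 23. In KIX/KIX homecage the highest *Btg2* library, replicate 3, had a ratio of 0.894. That library had already been singled out by its immediate early gene levels, so its pass is no separate support. In KIX/KIX CFC the highest *Tob2* library, also replicate 3, had a ratio of 0.882, with 30.9 CPM against 28.9 to 29.1 CPM.

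*Fos* had a larger response to CFC than to MWM in WT mice, by 1.66 on the log2 scale in the edgeR interaction test with all libraries. Its call was lost without WT MWM replicate 1 or 2, WT homecage replicate 1 or 3 of RNA-Seq 2, or WT CFC replicate 1, 3 or 4. The remaining differences were marked by pairs of comparisons, where every library lay above the mean of its reference group in 1 comparison and below it in the other, whether or not the groups overlapped. *Btg2* differed from WT homecage by −0.17 after MWM and by 0.92 after CFC, which chose it, and this was not tested. Against WT, KIX/KIX libraries differed for *Gadd45g* by 0.33 after MWM and by −0.20 after CFC, and for *Btg1* by −0.082 after MWM and by 0.13 after CFC, and neither difference between tasks was tested. After CFC, *Gadd45b* differed from homecage by 0.52 in WT and by −0.29 in KIX/KIX, and *Gadd45g* by 0.51 in WT and by −0.13 in KIX/KIX, where the interaction did not pass the edgeR test for either (adjusted p = 0.950 for each, log2 difference −0.81 and −0.64, in 4 of 4 libraries on each side). Without KIX/KIX homecage replicate 3 the KIX/KIX responses were −0.12 for *Gadd45b* and 0.27 for *Gadd45g*, and the interaction was at −0.64 and −0.24, so the opposite direction of *Gadd45g* rests on that library. For *Gadd45b*, homecage replicates 3 and 4, at 16.6 and 16.1 CPM, raised the homecage mean of KIX/KIX mice. All 4 KIX/KIX CFC libraries were above homecage replicates 1 and 2, at 8.08 and 8.76 CPM, so the opposite direction of *Gadd45b* rests on replicates 3 and 4.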

How the results depend on the processing

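Of 368 member differences with a test under the other settings, 346 kept their direction and their side of the threshold, 14 lost a call, 3 gained one and 5 changed sign, and of 890 with 1 library left out 840 kept both, 9 lost a call, 7 gained one and 34 changed sign. *Btg2* differences with no test, or with no p from DESeq2, moved by less than the spread in 48 of 48 other settings and in 108 of 110 fits with a library left out. A change of sign did not count as a move for *Btg2*, so these counts cannot be set beside those of the tested members. Some *Btg2* differences did change sign, as given below. Its standard errors were wide where KIX/KIX homecage entered, at 0.57 against WT in homecage and 0.60 for the genotype by training interaction. Most tested member differences were not called to begin with, so they had no call to lose and these shares do not measure how steady the calls were. The only member calls with all libraries were those of *Gadd45b*, *Tob1* and *Tob2* for WT learning and of *Gadd45b* in trained mutants. Each of these lost its call in some of the other settings and with at least 1 library left out. Depth bears on *Gadd45a* and *Btg3*, whose lowest counts in a library were 32 and 61.

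The counts of genes called were 231 for WT learning, 3 for WT MWM, 0 for WT CFC, 610 for trained KIX/KIX against WT, 0 for KIX/KIX against WT after MWM, 2 for KIX/KIX against WT after CFC, 2 for KIX/KIX against WT in homecage, 0 for CFC in KIX/KIX, 0 for the genotype by training interaction and 3 for the learning by task interaction. Of 52 such counts under other settings, 17 stayed within 1.5 times. With TMM normalization the others became 135 for WT learning and 1 for the learning by task interaction. With no filter on low counts they became 143 for WT learning, 131 for WT MWM, 308 for trained KIX/KIX against WT, 7 for KIX/KIX against WT after MWM, 10 for KIX/KIX against WT in homecage, 55 for CFC in KIX/KIX and 7 for the learning by task interaction. DESeq2 gave 34 for WT learning, 80 for WT MWM, 81 for trained KIX/KIX against WT, 7 for KIX/KIX against WT after MWM, 4 for KIX/KIX against WT after CFC, 59 for KIX/KIX against WT in homecage, 300 for CFC in KIX/KIX, 1 for the genotype by training interaction and 29 for the learning by task interaction. No RUVr factors gave 9 for WT learning and 4 for trained KIX/KIX against WT, and GC-content normalization gave 38 for WT learning and 203 for trained KIX/KIX against WT. With only the pair of groups compared the counts were 21 for WT CFC, 3 for KIX/KIX against WT after MWM, 1 for KIX/KIX against WT after CFC and 2 for CFC in KIX/KIX, and with all groups in the fit 5 for KIX/KIX against WT in homecage. A replicate block without RUVr factors gave 12 for WT learning, 1 for WT MWM, 8 for trained KIX/KIX against WT, 0 for KIX/KIX against WT in homecage, 4 for CFC in KIX/KIX and 6 for the learning by task interaction, and the block with RUVr factors gave 905 for WT learning and 2780 for trained KIX/KIX against WT. The cause of these shifts was not tested.

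With each library left out in turn, the counts ran from 36 to 2274 for WT learning, 0 to 2418 for WT MWM, 0 to 17 for WT CFC, 233 to 1022 for trained KIX/KIX against WT, 0 to 2 for KIX/KIX against WT after MWM, 2 to 3 for KIX/KIX against WT after CFC, 0 to 7 for KIX/KIX against WT in homecage, 0 to 999 for CFC in KIX/KIX, 0 to 63 for the genotype by training interaction and 0 to 892 for the learning by task interaction, and 80 of 125 stayed within 1.5 times.

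The log2 differences that changed sign under another setting were those of *Btg1* for WT learning (−0.025) and for trained KIX/KIX against WT (−0.024) with GC-content normalization, of *Btg2* for CFC in KIX/KIX with no filter (−0.011) and by DESeq2 with no p (−0.022), and, with a replicate block, of *Btg1* (0.048) and *Tob1* (0.067) for KIX/KIX against WT in homecage. With 1 library left out, the tested differences that changed sign ran, for *Gadd45a*, from −0.058 to 0.089 for WT CFC. Those of *Gadd45b* ran from −0.11 to 0.20 for the learning by task interaction. Those of *Gadd45g* ran from −0.022 to 0.096 for trained KIX/KIX against WT and −0.31 to 0.27 for CFC in KIX/KIX. Those of *Btg1* ran from −0.0016 to 0.082 for trained KIX/KIX against WT, −0.13 to 0.0101 for KIX/KIX against WT after MWM and −0.096 to 0.053 for KIX/KIX against WT in homecage. Those of *Btg2* ran from −0.23 to 0.95 for CFC in KIX/KIX. Those of *Btg3* ran from −0.042 to 0.15 for WT learning, −0.054 to 0.39 for WT MWM, −0.013 to 0.084 for KIX/KIX against WT after CFC and −0.44 to 0.008 for the learning by task interaction. Those of *Tob1* ran from −0.047 to 0.021 for trained KIX/KIX against WT, −0.13 to 0.021 for KIX/KIX against WT after MWM, −0.039 to 0.067 for KIX/KIX against WT after CFC, −0.17 to 0.084 for KIX/KIX against WT in homecage and −0.062 to 0.19 for the genotype by training interaction. Those of *Tob2* ran from −0.020 to 0.25 for WT MWM, −0.071 to 0.013 for trained KIX/KIX against WT, −0.13 to 0.075 for KIX/KIX against WT after MWM, −0.069 to 0.027 for KIX/KIX against WT after CFC and −0.0092 to 0.18 for the genotype by training interaction. Those of *Btg2* with no test that changed sign ran from −0.17 to 0.0087 for KIX/KIX against WT after MWM, −0.38 to 0.81 for KIX/KIX against WT in homecage and −1.15 to 0.026 for the genotype by training interaction. The cause was not tested.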
